A study of Mus musculus with 7 samples.

Results

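Complement is a cascade of blood and tissue proteins that tags surfaces for removal, and the 9 genes described here encode some of its components (C3, C4b, Cfb, Cfd), its inhibitors (Cfi, Serping1, Cd55, Cd59a) and clusterin (Clu), a secreted chaperone that also blocks the terminal attack complex. The members were the rows of the count table whose symbol was on that list, and all 9 were among its 21861 rows. The tissue was the retinal pigment epithelium (RPE), a pigmented sheet between the photoreceptors and the choroid, taken from aged mice 12 weeks after treatment with an adeno-associated virus (AAV) and profiled by RNA-seq. One group of 3 libraries had received AAV-GFP and the other group of 4 had received AAV-GSTA4, which carries a glutathione transferase that conjugates reactive lipid aldehydes. Both groups therefore carried a vector, and no untreated group was analysed here. The labels give no age, strain, sex, promoter or vector serotype, and do not say whether each library came from a separate animal, so the p-values measure the spread between these libraries, which may be partly technical.

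The cascade starts by 3 routes that meet at C3. The classical route begins with the C1q complex and C4, the lectin route uses related proteases, and the alternative route amplifies itself through factor B (Cfb), factor D (Cfd) and properdin (Cfp). Factor I (Cfi) inactivates deposited C3 fragments, the C1 inhibitor (Serping1) blocks the first proteases, and the membrane proteins CD55 and CD59 protect the cell's own surface. In the eye, complement is studied for its part in age-related macular degeneration, a disease of the RPE and the tissue around it.

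Clu lies on chromosome 14 (65968483 to 65981547, plus strand, GRCm38) and had the highest level of all members. C4b, Cfb and C3 lie on chromosome 17 at 34728380 to 34743882, 34856374 to 34862518 and 57203970 to 57228136, all on the minus strand. Serping1 and Cd59a lie on chromosome 2 at 84765387 to 84775444 on the minus strand and 104095801 to 104115354 on the plus strand. Cd55 lies on chromosome 1 (130439027 to 130462744, minus strand), Cfi on chromosome 3 (129835884 to 129875332, plus strand) and Cfd on chromosome 10 (79890853 to 79892655, plus strand). These positions are those of the GENCODE M21 annotation, and the counts cover exons.

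Some reads from 4 members can also be assigned to another gene, through similar sequence or through exons annotated over the same bases. The rule for such reads is not given in the sources used here. In the GENCODE M21 transcripts, 34.6% of the 50-base stretches of C4b also occur in C4a, and 15.2% of its 100-base stretches do. Cfb shares 2246 of its 2825 exon bases with Gm20547, which is annotated over the same bases on the same strand and is a row at 0 counts in every library. Reads on those bases may have been left out of both rows, so the counts of Cfb may understate its level. Cd55 shares 9.12% of its 50-base stretches with other genes, mostly Cd55b. Clu, C3, Cfd, Cfi and Serping1 share none, and Cd59a shares 3.87% with Cd59b. The stretch below shows where reads cannot separate C4b from C4a. It is the first 120 bases of a run of 433 coding bases found unbroken in both, spans exons 5 to 7 of the 41 exons of C4b, and is read from the transcript, so its genome span chr17:34741876-34742388 (minus strand, GRCm38) includes introns.
C4b and C4a: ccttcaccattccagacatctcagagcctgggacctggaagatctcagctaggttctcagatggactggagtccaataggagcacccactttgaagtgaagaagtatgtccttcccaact

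RefSeq promoter windows (GRCm38.p6, 250 bases before to 50 after the annotated start) were matched for 4 members, C3, Cd55, Cd59a and Cfd. Each was searched on both strands for 6 motifs: TATAAA, the C/EBP motif TTGCNNAA, the STAT motif TTCNNNGAA, the NRF2 element TGACNNNGC, the interferon-stimulated element and the NF-kB motif. The matches found did not overlap each other. The bases before the start are printed for the pair of promoters that hold a match there, with the match in capitals, so that the motif can be seen beside the levels given later.
C3 (chr17:57228137-57228386, minus strand): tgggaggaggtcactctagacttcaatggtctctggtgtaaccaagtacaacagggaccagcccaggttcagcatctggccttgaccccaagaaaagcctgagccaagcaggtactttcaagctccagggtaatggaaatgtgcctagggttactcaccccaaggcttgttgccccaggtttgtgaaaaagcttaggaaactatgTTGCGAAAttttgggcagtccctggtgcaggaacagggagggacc
Cd59a (chr2:104095551-104095800, plus strand): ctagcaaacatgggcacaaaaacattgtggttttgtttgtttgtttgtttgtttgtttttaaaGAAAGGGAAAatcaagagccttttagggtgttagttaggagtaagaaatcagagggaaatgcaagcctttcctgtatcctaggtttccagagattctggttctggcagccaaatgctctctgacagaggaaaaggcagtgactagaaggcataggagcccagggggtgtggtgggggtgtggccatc
The C3 match is the C/EBP motif, which 10.8% of the 32851 windows hold, and C3 also had TATAAA just after the start (13.6% of windows). The Cd59a match is the interferon-stimulated element, which 3.44% of windows hold. The Cd55 and Cfd windows held none of the 6, and the STAT, NF-kB and NRF2 motifs, in 8.30%, 0.411% and 12.4% of windows, were in none of the 4. A match describes letters only.

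Library totals ranged from 15329181 to 28998964 counts. The human transgene row hGSTA4 had 1 to 3 counts in the AAV-GFP libraries and 4209, 5239, 45 and 1184 in AAV-GSTA4 replicates 1 to 4, so replicate 3 had far fewer than the rest of its group. AAV-GFP replicate 3 had a trimmed-mean (TMM) scaling factor of 1.36 against 0.868 to 1.05 for the other libraries. All 14 RPE markers had counts in every library and together took 3.19% to 9.72% of counts, while 12 rod photoreceptor markers took 1.45% to 5.45% in AAV-GFP and 0.690% to 1.33% in AAV-GSTA4, without overlap. In bulk samples such as these, fewer cells of a type and less RNA per cell cannot be told apart. In edgeR's quasi-likelihood test 0 of 15075 genes passed an adjusted p of 0.05, and 1794 (11.9%) had an unadjusted p under 0.05. Even the delivered transgene hGSTA4 was thus not called, despite the counts given above. It was called when AAV-GSTA4 replicate 3 was left out. Failing this test therefore does not show that a gene was unchanged. Levels are in CPM, a gene's count relative to the library's TMM-scaled total, and fold changes are AAV-GSTA4 over AAV-GFP.

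Of the 8 members tested, edgeR's test placed 0 past the adjusted threshold (0% of all genes), and 1, Clu, had an unadjusted p under 0.05. Clu was also the only member whose groups did not overlap, where 12.0% of all genes tested have no overlap and 6.44% have none with the higher values in AAV-GSTA4. Of the other 7 tested, 6 had a negative log2 fold change, as did 55.4% of all genes tested, and their median was -0.24 against -0.07 for all genes. Cfb had too few counts to be tested. With limma-voom in place of edgeR 3 of the 8, Clu, C3 and Cd59a, had an unadjusted p under 0.05, as did 21.8% of all genes, and none passed after adjustment.

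**Figure D1:**
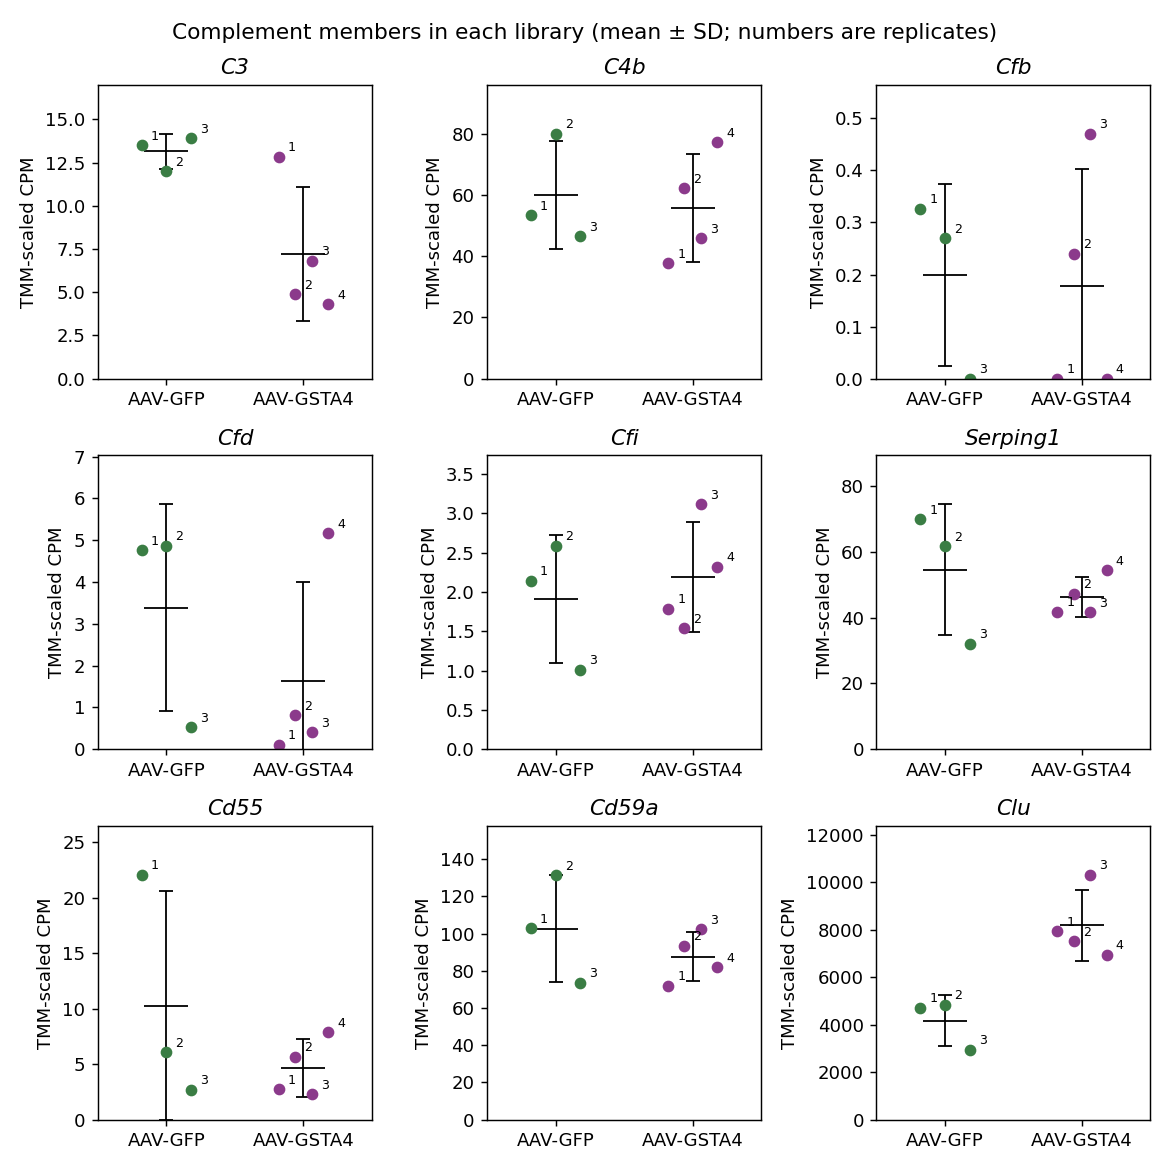
TMM-scaled CPM of each member (vertical axes, linear from 0, a scale per panel) in the 3 AAV-GFP libraries (green) and the 4 AAV-GSTA4 libraries (purple), with the replicate number beside each point and the mean ± SD in black, cut off at 0 where it would run below. Clu lies at 2949 to 4842 CPM in AAV-GFP and at 6952 to 10307 CPM in AAV-GSTA4, whereas the groups overlap for each other member.

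C4b encodes C4, which the classical and lectin proteases cleave to build the enzyme that activates C3. It was at 53.5, 79.97 and 46.5 CPM in AAV-GFP, in the order of replicates used throughout, and at 37.7, 62.1, 45.8 and 77.3 CPM in AAV-GSTA4. The highest library of each group was nearly equal, and the ranges overlapped over most of their length. The means were 59.97 CPM ± 17.7 (SD, n = 3) and 55.7 CPM ± 17.6 (SD, n = 4). edgeR's fit gave a log2 fold change of -0.11 ± 0.30 (SE) and an adjusted p of 0.913. It was 0.16 without AAV-GFP replicate 2 and 0.06 without AAV-GSTA4 replicate 1, so its sign rested on single libraries. How reads that match both C4b and C4a were counted is unknown.

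C3 is the protein on which all routes meet. It was at 13.5, 12.0 and 13.9 CPM in AAV-GFP and at 12.8, 4.89, 6.82 and 4.32 CPM in AAV-GSTA4. The AAV-GFP libraries stood close together, 3 of the 4 AAV-GSTA4 libraries lay below them, and AAV-GSTA4 replicate 1 lay among them. On the log2 scale the difference was -0.87 ± 0.41 (SE), or 0.548-fold, and edgeR's test gave an unadjusted p of 0.0599 and an adjusted p of 0.433. Exact permutation of the 7 libraries (two-sided, 35 relabellings, smallest possible p 0.0286) gave p = 0.0857 for log2 CPM. Without AAV-GSTA4 replicate 1 the log2 fold change was -1.28, with an unadjusted p of 0.00496 in edgeR's test and no adjusted call. Leaving out any other single library gave -0.92 to -0.66, with an unadjusted p of 0.0901 to 0.152 in the same test. C3, whose promoter is printed above, was read at 102 to 311 counts a library.

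Cfb and Cfd encode the proteases of the alternative route. Cfb had 7, 7 and 0 counts in AAV-GFP and 0, 5, 8 and 0 counts in AAV-GSTA4, against a detection floor of 3 counts, which is 0.111 to 0.176 CPM. Both groups thus held libraries with none and libraries with a few reads, and no fold change is given. Cfd, also known as adipsin because fat cells secrete it, was at 4.75, 4.87 and 0.528 CPM in AAV-GFP and at 0.105, 0.816, 0.411 and 5.17 CPM in AAV-GSTA4. High and low libraries occurred in both groups, with 102, 126 and 140 counts in the high ones and 2 to 17 in the low ones. Its log2 fold change of -1.04 ± 1.15 (SE) had an adjusted p of 0.742 in edgeR's test, and became -2.88 without AAV-GSTA4 replicate 4. With any other single library left out the log2 fold change was -1.54 to -0.65. The 3 libraries with high Cfd were also the 3 with the highest summed level of 8 adipocyte markers: 827 and 455 CPM in AAV-GFP replicates 1 and 2 and 439 CPM in AAV-GSTA4 replicate 4, against 34.4 to 196 CPM in the other 4 libraries. Of these markers Adipoq, Plin1 and Lep were at 0 counts in AAV-GSTA4 replicates 1 and 3, Cidec also in replicate 1, Lep in AAV-GFP replicates 1 and 2 and Adipoq in AAV-GFP replicate 3. Their part in the Cfd level was not tested.

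Among the soluble inhibitors, Cfi, the protease that cleaves C3b, was at 2.14, 2.59 and 1.01 CPM in AAV-GFP and at 1.79, 1.54, 3.11 and 2.32 CPM in AAV-GSTA4. The groups interleaved, at 21 to 67 counts a library. edgeR's fit gave a log2 fold change of 0.19 ± 0.60 (SE) and an adjusted p of 0.920. The value turned to -0.05 with library totals, -0.11 without AAV-GFP replicate 3 and -0.02 without AAV-GSTA4 replicate 3.

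Serping1, the C1 inhibitor, was at 69.9, 61.7 and 32.1 CPM in AAV-GFP and at 41.8, 47.3, 41.7 and 54.4 CPM in AAV-GSTA4. Replicates 1 and 2 of AAV-GFP lay above all AAV-GSTA4 libraries and replicate 3 lay below them all. Its log2 fold change of -0.24 ± 0.28 (SE) had an adjusted p of 0.756 in edgeR's test, and became -0.50 without AAV-GFP replicate 3 and -0.02 without AAV-GFP replicate 1. The summed level of 10 fibroblast markers was likewise highest in AAV-GFP replicate 1 (1037 CPM) and lowest in AAV-GFP replicate 3 (242 CPM), and lay between 345 and 744 CPM in the other 5 libraries, with no marker at 0. Its part in the Serping1 level was not tested.

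The membrane inhibitors differed in how much they varied. Cd55, which breaks up the C3-cleaving enzymes, was at 22.0, 6.06 and 2.69 CPM in AAV-GFP and at 2.74, 5.66, 2.29 and 7.90 CPM in AAV-GSTA4. AAV-GFP replicate 1 was the only library above 7.90 CPM, and the others interleaved. In edgeR's fit the difference was -1.14 ± 0.70 (SE) on the log2 scale at an adjusted p of 0.531, and without AAV-GFP replicate 1 it was 0.09. Cd59a, which stops assembly of the membrane pore, was at 103, 131 and 73.6 CPM in AAV-GFP and at 72.1, 93.6, 102 and 81.98 CPM in AAV-GSTA4. Each AAV-GSTA4 library lay below 2 of the 3 AAV-GFP libraries, and AAV-GFP replicate 3 was nearly the lowest of all. edgeR's fit gave a log2 fold change of -0.23 ± 0.24 (SE) and an adjusted p of 0.730. It was -0.01 without AAV-GFP replicate 2 and -0.42 without AAV-GFP replicate 3.

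Clu was at 4719, 4842 and 2949 CPM in AAV-GFP and at 7931, 7517, 10307 and 6952 CPM in AAV-GSTA4. The lowest AAV-GSTA4 library was above the highest AAV-GFP library, and the SD of each group was smaller than the difference between the means. The means were 4170 CPM ± 1059 (SD, n = 3) and 8177 CPM ± 1476 (SD, n = 4). AAV-GSTA4 was thus 0.97 ± 0.34 (SE) above AAV-GFP on the log2 scale, or 1.96-fold (1.55 to 2.48 over 1 SE to either side). In edgeR's test the unadjusted p was 0.0172 and the adjusted p was 0.373, so Clu did not pass over all genes. DESeq2, run as an alternative, passed Clu at an adjusted p of 0.0344 with a log2 fold change of 0.99, and called 1.30% of the genes it tested. The other 15 alternatives left the adjusted p between 0.0975 and 0.853, all with a positive log2 fold change. AAV-GSTA4 replicate 3, which had the most Clu, had the fewest hGSTA4 counts of its group. Without that library the log2 fold change was 0.85, with an unadjusted p of 0.0522 in edgeR's test. Exact permutation, run for each of the 9 members, gave an unadjusted p of 0.0286 for Clu, the smallest that 3 against 4 libraries allow.

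The separation of Clu was also present without TMM scaling. Of all counts in a library, Clu took 0.466% (95% Wilson interval 0.463 to 0.469), 0.507% (0.504 to 0.510) and 0.401% (0.398 to 0.404) in AAV-GFP. It took 0.765% (0.761 to 0.769), 0.679% (0.676 to 0.683), 0.894% (0.890 to 0.898) and 0.650% (0.647 to 0.653) in AAV-GSTA4. The intervals are far narrower than the gap between groups, and they cover counting error only, since no molecular identifiers are mentioned and PCR copies are counted separately. Scaling by totals alone moved the median over all genes tested, on the log2 scale, from -0.07 to -0.37 and that of Clu from 0.97 to 0.70. Relative to that median Clu was at 1.04 with TMM and at 1.075 with totals. Y-linked counts were present in AAV-GFP replicate 1 and AAV-GSTA4 replicates 3 and 4. Among these Clu was 1.83-fold higher in AAV-GSTA4 (1 library against 2), and among the other libraries 1.98-fold (2 against 2).

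Set against each other member within the same library, Clu had the larger distance in AAV-GSTA4 on average in 8 of 8 cases. The rise of Clu itself enters every distance, and no other member rose as much, so this count adds nothing to the fold changes. The smallest increase in the distance was from Cfi, where log2 CPM of Clu minus that of Cfi was 11.04, 10.82 and 11.39 in AAV-GFP and 12.04, 12.17, 11.65 and 11.49 in AAV-GSTA4. The groups lay apart by a narrow margin. From Cd59a the distance was 5.52, 5.20 and 5.32 in AAV-GFP and 6.78, 6.33, 6.65 and 6.40 in AAV-GSTA4, the most even of the 8, and the mean difference was 1.19. From C3 the distance grew by 1.98, with values of 7.72 to 8.64 in AAV-GFP and 9.26 to 10.62 in AAV-GSTA4. The groups also lay apart for C4b (by 1.11 on average) and Serping1 (by 1.16), and they overlapped for Cfb, Cfd and Cd55. For C4b the groups nearly touched, at 6.46 and 6.49. Separation for 5 of 8 members is to be read against the 48.8% of all other genes tested for which the same held. No test was run on these differences.

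**Figure D2:**
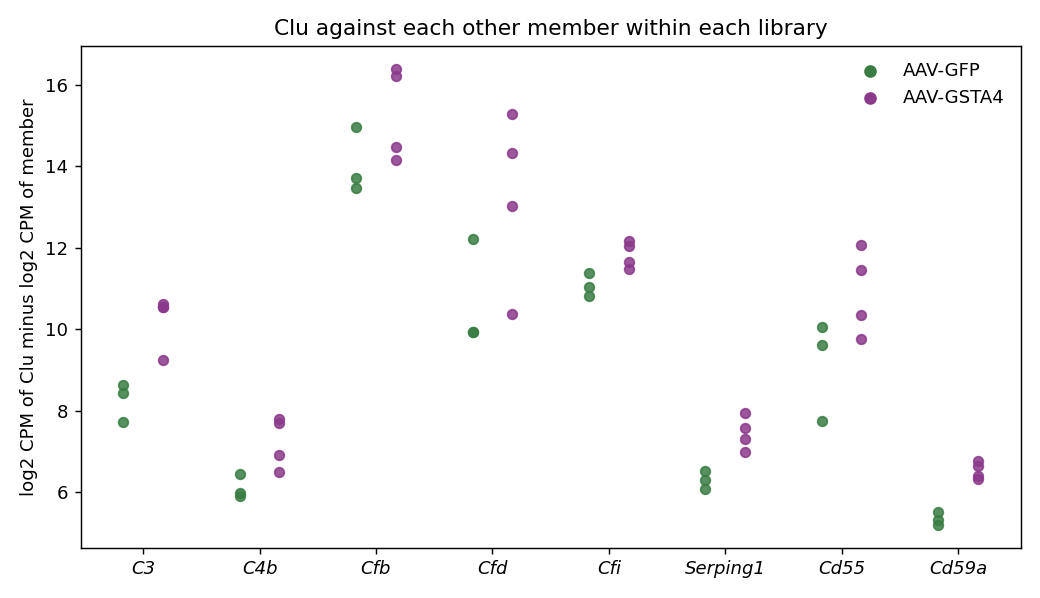
Difference between the log2 CPM of Clu and that of each other member (vertical axis, log2 units; horizontal axis, the 8 members), with 1 point per library, AAV-GFP in green and AAV-GSTA4 in purple. The AAV-GSTA4 points lie above all AAV-GFP points for C3, C4b, Cfi, Serping1 and Cd59a and overlap them for Cfb, Cfd and Cd55.

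Per kilobase of exon, the members kept a wide order of levels. Clu was at 1213 and 2379 CPM per kilobase in AAV-GFP and AAV-GSTA4, and ranked between 14th and 26th of 14917 genes in each library. Cd59a followed at 56.7 and 48.3, Serping1 at 23.5 and 19.9 and C4b at 10.5 and 9.79 CPM per kilobase. Over libraries Cd59a (39.8 to 72.6) stayed above Serping1 (13.8 to 30.05), whose lowest library was just under the highest of C4b (6.63 to 14.04). Cfd, C3, Cd55 and Cfi came next, at 3.67, 2.56, 2.12 and 0.862 in AAV-GFP and 1.76, 1.40, 0.958 and 0.987 in AAV-GSTA4. Over libraries Cfd ranged from 0.114 to 5.60 and C3 from 0.839 to 2.71 CPM per kilobase. Cd55 ranged from 0.472 to 4.54 and Cfi from 0.454 to 1.40, so these ranges over all libraries overlapped. Within AAV-GFP, C3 (2.34 to 2.71) lay above Cfi (0.454 to 1.17), whereas in AAV-GSTA4 their values interleaved. Cfb was last, at 0.0704 and 0.0628, taken over all its exon bases, including those it shares with Gm20547. Clu supplied 94.2% to 94.6% of the reads on the 9 members in AAV-GFP and 96.8% to 98.1% in AAV-GSTA4.

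Markers of the RPE itself were also higher in most AAV-GSTA4 libraries. The summed level of the 14 RPE markers was 70487, 55358 and 23450 CPM in AAV-GFP and 83658, 61584, 112017 and 91760 CPM in AAV-GSTA4, and 13 of the 14 had a positive log2 fold change, with a median of 0.64. The groups overlapped. AAV-GFP replicate 3 had the lowest sum and the least Clu, and AAV-GSTA4 replicate 3 had the highest sum and the most Clu. The other libraries did not all keep that order: AAV-GSTA4 replicate 2 had a lower RPE sum than AAV-GFP replicate 1 and more Clu (7517 against 4719 CPM), and AAV-GSTA4 replicate 4 had the second-highest sum and the least Clu of its group.

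Divided by the RPE sum, Clu was 0.0670, 0.0875 and 0.126 in AAV-GFP and 0.0948, 0.122, 0.0920 and 0.0758 in AAV-GSTA4. The groups then overlapped, and the mean ratio was 0.0934 ± 0.0298 (SD, n = 3) against 0.0962 ± 0.0192 (SD, n = 4), a quotient of 1.03. Without Rgr, which gave on average 54.7% of the sum and was left out after the values were seen, the quotient was 1.12 and the groups again overlapped. Against single RPE markers the quotient depended on the marker. It ran from 0.842 (Lrat) to 3.94 (Pmel, the marker with a negative log2 fold change), with Rpe65 at 0.948 and Slc45a2 at 1.65. Glial cells of the retina also express Clu. The sum of 10 Mueller glia and astrocyte markers was 1667 to 3188 CPM in AAV-GFP and 2585 to 4289 CPM in AAV-GSTA4, with Pax2 at 0 counts in 5 of 7 libraries, and Clu per unit of it had a quotient of 1.26 with overlapping groups. That sum did not stand for the whole list: 6 of the 9 markers tested had a negative log2 fold change, the median was -0.85, and Car14 alone gave 44.4% to 84.9% of the sum. Without Car14, left out after the values were seen, the sum was 690 to 927 CPM in AAV-GFP and 639 to 649 CPM in AAV-GSTA4, and the quotient for Clu was 2.28 without overlap. Divided by the rod sum, Clu was 0.0735 to 0.321 in AAV-GFP and 0.577 to 0.942 in AAV-GSTA4, without overlap. For the sum without Car14 and for the rod sum this separation had to follow. Clu was higher and each of these sums lower in AAV-GSTA4, all without overlap. The part of these cell types in the Clu level was not tested.

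**Figure D3:**
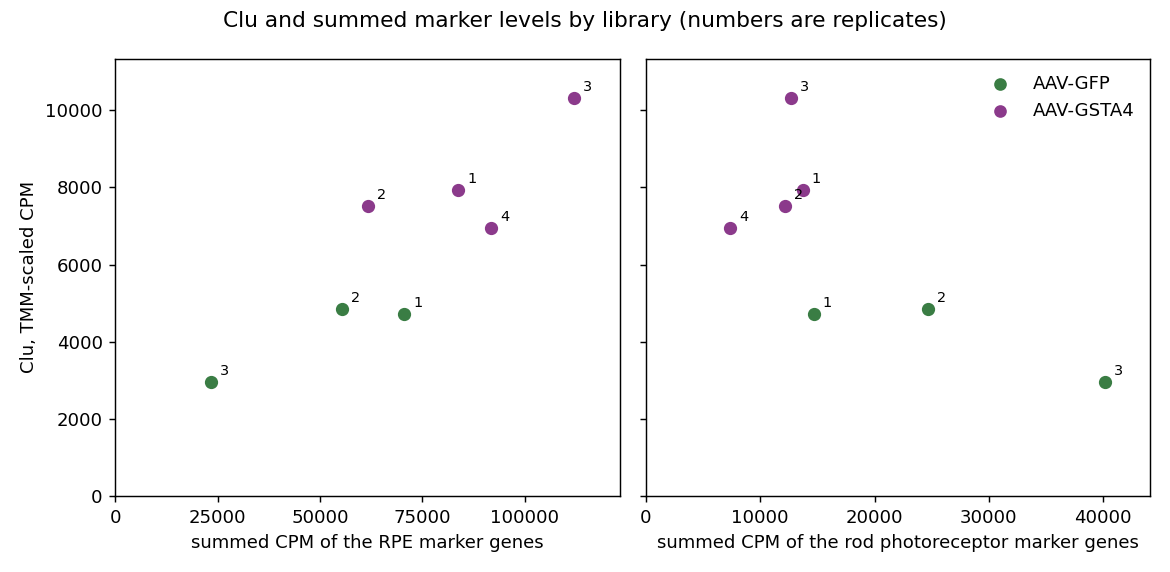
Clu level (vertical axis, TMM-scaled CPM) against the summed CPM of 14 RPE markers (left) and 12 rod photoreceptor markers (right) in each library, AAV-GFP in green, AAV-GSTA4 in purple, with replicate numbers. AAV-GFP replicate 3 has the least Clu, the lowest RPE sum (23450 CPM) and the highest rod sum (40121 CPM), while AAV-GSTA4 replicate 3 has the most Clu and the highest RPE sum (112017 CPM).

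Of 53 other complement genes listed, 50 were in the table and 34 were tested. In edgeR's test 0 passed the adjusted threshold, 0 had an unadjusted p under 0.05 with a higher level in AAV-GSTA4 (5.27% of all genes did), and 6 had one with a lower level (6.63% of all genes did). Their median log2 fold change was -0.41, against -0.07 for all genes, with 24 of 34 negative. The 6 were C1qc, Cfp, Vtn, Csmd1, Csmd3 and Susd4. By group, these were 1 of 10 tested initiation genes, 1 of 3 of the alternative route, 0 of 3 of the terminal route, 4 of 10 other regulators and 0 of 8 receptors.

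Among the initiators, C1qc, a chain of the C1q recognition protein, was at 69.95, 121 and 61.1 CPM in AAV-GFP and at 55.4, 53.2, 44.4 and 34.3 CPM in AAV-GSTA4. The highest AAV-GSTA4 library lay below the lowest AAV-GFP library, as in 5.61% of all genes tested. edgeR's fit gave a log2 fold change of -0.84 ± 0.28 (SE) and an adjusted p of 0.363. AAV-GFP replicate 2 was the highest library, and without it the value was -0.48, with an unadjusted p of 0.108. C1qa and C1qb, the other chains, had log2 fold changes of -0.62 ± 0.33 (SE) and -0.42 ± 0.25 (SE), and their groups overlapped. Without AAV-GFP replicate 2 these were -0.28 and -0.13. C1q is made by macrophages and microglia, and the summed level of 14 of their markers was 551 to 1243 CPM in AAV-GFP and 889 to 1156 CPM in AAV-GSTA4, with 13 of 14 at a negative log2 fold change and none at 0 counts. C1qc per unit of that sum was 0.0563 to 0.111 in AAV-GFP and 0.0302 to 0.0623 in AAV-GSTA4, so the groups overlapped. The marker that went against the rest was Csf1r, at a log2 fold change of 1.11 and 20.8% to 58.5% of the sum. Without it, a choice made after the values were seen, the sum was 424 to 985 CPM in AAV-GFP and 369 to 714 CPM in AAV-GSTA4, and the quotient of the group means for C1qc went from 0.515 to 0.763. C1ra, C1s1 and C2, the proteases of the route, had log2 fold changes of 0.03, 0.03 and -0.20, each smaller than its SE. The first pair turned negative with library totals, at -0.24 and -0.16. C4a was not analysed here.

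In the alternative route, Cfp (properdin, which stabilises the C3-cleaving enzyme) was at 6.90, 6.18 and 5.52 CPM in AAV-GFP and at 3.79, 2.74, 2.47 and 1.99 CPM in AAV-GSTA4. The groups did not overlap, at 42 to 160 counts a library. On the log2 scale the difference was -1.17 ± 0.40 (SE), and the adjusted p was 0.371 in edgeR's test. Per unit of the macrophage marker sum, Cfp was 0.00555 to 0.010 in AAV-GFP and 0.00176 to 0.00426 in AAV-GSTA4, without overlap. With Csf1r left out of the sum the groups overlapped, at 0.00700 to 0.0130 and 0.00279 to 0.0103, and the quotient of the means went from 0.397 to 0.600. The part of macrophage content in these levels was not tested.

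Among the regulators, Vtn (vitronectin, which binds the terminal complex) was at 186, 312 and 629 CPM in AAV-GFP and at 197, 183, 204 and 145 CPM in AAV-GSTA4. Its highest library was AAV-GFP replicate 3, which was also the one with the highest rod marker sum, and AAV-GFP replicate 1 lay among the AAV-GSTA4 libraries. Its log2 fold change of -1.05 ± 0.37 (SE) had an adjusted p of 0.373 in edgeR's test, and became -0.45 without AAV-GFP replicate 3. Susd4 and Csmd1 were also highest in that library, at 22.7 and 11.8 CPM, against 2.84 to 7.5 and 0.517 to 1.58 CPM in all others. Without it their log2 fold changes were -0.63 and -0.06 instead of -1.48 and -2.26. Csmd3 was at 3.40 to 4.47 CPM in AAV-GFP and at 0.579 to 2.40 CPM in AAV-GSTA4, with a log2 fold change of -1.44 ± 0.60 (SE) and an adjusted p of 0.397 in edgeR's test. The part of the rod content in these levels was not tested.

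For the remaining regulators and receptors named, no difference passed the test. Cd46, Cr1l and Cd59b, which guard cell surfaces, had log2 fold changes of -0.70 ± 0.76 (SE), 0.03 ± 0.45 (SE) and 0.00 ± 0.42 (SE). C3ar1, the C3a receptor, was at 21.1 to 28.3 CPM in AAV-GFP and at 13.3 to 21.7 CPM in AAV-GSTA4, a log2 fold change of -0.48 ± 0.25 (SE) with an adjusted p of 0.472 in edgeR's test. C5ar1, the C5a receptor, had a log2 fold change of -0.19 ± 0.50 (SE), and Hc, which encodes C5, was at 2 to 53 counts a library. The 8 receptor genes together were at 105.9 to 132 CPM in AAV-GFP and at 56.5 to 82.5 CPM in AAV-GSTA4, without overlap. Taken singly, 0 of the 8 were without overlap and 0 had an unadjusted p under 0.05 in edgeR's test. Of the 8, 7 had a negative log2 fold change, as did 55.4% of all genes tested.

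**Figure D4:**
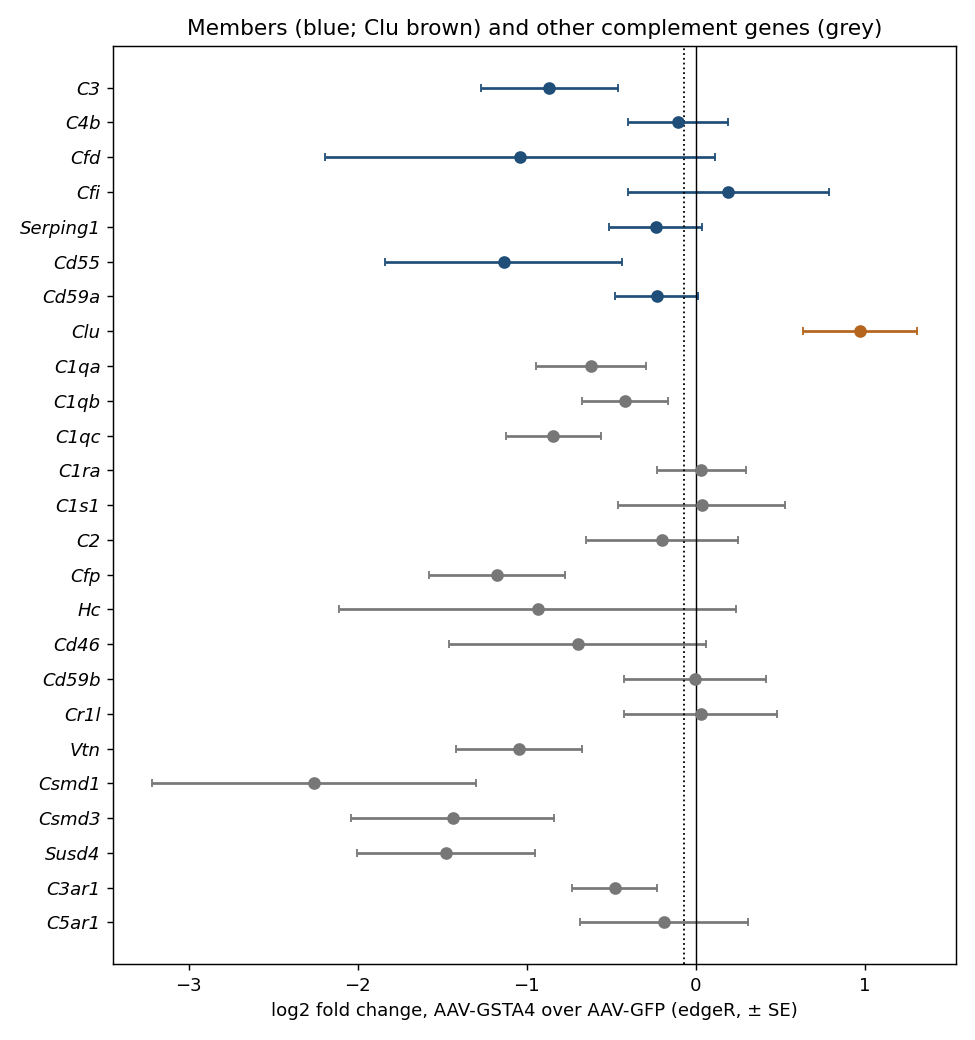
Log2 fold change of AAV-GSTA4 over AAV-GFP (horizontal axis, edgeR fit, bars ± SE) for the 8 members tested (blue, Clu in brown) and other complement genes named in the text (grey), with a solid line at 0 and a dotted line at the median of all genes tested, -0.07. Clu at 0.97 lies farthest to the right, and none of the genes shown passed the adjusted threshold of edgeR's test.

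Among 7304 genes averaging at least 4 on the log2 CPM scale, those whose log2 CPM followed Clu most closely over the 7 libraries were Tmem185a (Pearson r = 0.997), Sbk2 (0.993), Sorbs2 (0.989), Atl3 (0.989) and Hacd3 (0.988). The points share the libraries, their scaling and the step between the groups, so these coefficients describe likeness only. Tmem185a was at 65.8 to 83.99 CPM in AAV-GFP and at 104 to 130 CPM in AAV-GSTA4, a narrower step than that of Clu. Sbk2 was at 11.4 to 18.7 and 25.2 to 35.3 CPM, and Sorbs2 at 64.8 to 107 and 141 to 195 CPM. Adjusted p-values of the 5 were 0.363 to 0.489 in edgeR's test, so none passed.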

How the data were processed

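The authors deposited a table of raw read counts whose rows are gene symbols and whose columns are libraries. Per the submitters' processing notes the tools were STAR 2.7.1a and featureCounts 1.6.2, with GRCm38 and GRCh38 among the builds named; the strand and multi-mapping settings are not given in the sources used here. Per the labels' protocols, polyadenylated RNA was made into full-length cDNA with a low-input kit, amplified and cut with a transposase. Columns were matched by library name and are called here by the replicate number of the sample titles. Of 26 rows with a repeated symbol, the one with the highest total kept the plain name.

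The main test was edgeR 4.0.16 (R 4.3.3), quasi-likelihood with the robust option, on all 7 libraries with group as the only factor, TMM scaling and the default expression filter, with Benjamini-Hochberg adjustment over all genes tested and a threshold of 0.05. SE is the log2 fold change divided by the root of F. Log2 CPM used a prior count of 2. Single genes were also compared by exact two-sided permutation of the difference in mean log2 CPM. Alternatives used DESeq2 1.42.0, limma 3.58.1, other scalings and filters, replicate blocks, a Y-linked covariate and each library left out. Each pair of libraries differed beyond sampling noise (chi-square per gene at least 57.5). The members and lists were chosen with earlier results of these data known. Genes named were the 9 members, other complement genes listed in advance or with an unadjusted p under 0.05, and the 5 genes most like Clu. Results for some single genes covered by that rule are left out.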

Additional observations from a re-analysis of the deposited data

Results flagged for a closer look

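Within the 4 AAV-GSTA4 libraries, 42 levels were examined for a library far from the other 3, and 5 had one, where chance gives about 5% of the levels examined. Cfd was at 5.17 CPM in AAV-GSTA4 replicate 4, against 0.105 to 0.816 CPM in the other 3, and the adipocyte marker sum was at 438.6 CPM in the same library, against 34.4 to 93.1 CPM. Cr1l, a membrane regulator of C3, was at 24.2 CPM in AAV-GSTA4 replicate 1, against 46.96 to 50.6 CPM in the others. The lens fibre marker sum was at 55452 CPM in AAV-GSTA4 replicate 2, against 1852 to 10381 CPM. The summed level of the 8 complement receptor genes was at 56.5 CPM in AAV-GSTA4 replicate 3, against 82.2 to 82.5 CPM in the others. The lens signal was not limited to that library: AAV-GSTA4 replicates 1 and 4, at 10381 and 5620 CPM, also exceeded the highest AAV-GFP library, at 4842 CPM, and replicate 3 did not. All 8 lens markers tested had a positive log2 fold change, with a median of 3.06, and 5 had an unadjusted p under 0.05 in edgeR's test, with 0 past the adjusted threshold. Clu over the lens sum had a quotient of group means of 1.17 with overlapping groups. The part of lens material in the Clu level was not tested.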

How the results depend on the processing

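Low counts limit what can be seen for Cfb, Cfd and Cfi. Genes passing after adjustment numbered 0 in the main test, 167 with DESeq2, 1 (hGSTA4) with the replicate block by title number, and 0 to 1 with each library left out (hGSTA4, without AAV-GSTA4 replicate 3). DESeq2 passed 1 member, Clu, at a log2 fold change of 0.99, and no other alternative passed a member. Genes at an unadjusted p under 0.05 numbered 833 with the replicate block by title number, 1170 with the block by library number, 3293 with limma-voom and 1032 to 1987 with libraries left out. Members at that level numbered 3 with library totals, 3 with limma-voom, 0 with the block by title number and 0 to 3 with libraries left out (3 without AAV-GFP replicate 3, 2 without AAV-GSTA4 replicate 1 or 4, 0 without AAV-GSTA4 replicate 3). Other complement genes at that level numbered 11 with library totals, 1 and 3 with the blocks by title and library number, and 1 to 6 with libraries left out (1 without AAV-GSTA4 replicate 4). The causes were not tested.

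Clu kept a positive log2 fold change in every alternative, 0.78 to 1.1 with libraries left out, 1.08 with the replicate block by title number and 1.04 with the block by library number. Deviations of same-numbered libraries from their group means correlated at -0.09, 0.00 and 0.01 by title and -0.09, 0.02 and -0.13 by library number. The labels do not state a pairing, and these values cannot decide it, since the libraries also differ in marker content. The median gain of Clu over the other members was 1.12 to 1.49 with libraries left out. Among ratios to marker sums, leaving out 1 marker after seeing the data moved that of Clu to the Mueller glia and astrocyte sum from 1.26 to 2.28.

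Signs turned for several genes, most of them near 0 and also Hc (-0.94 in the main test) and Cd55 (-1.14). With library totals the log2 fold change was -0.053 for Cfi, -0.24 for C1ra, -0.16 for C1s1 and -0.19 for Cr1l. With limma-voom it was -0.045 for Cfi, -0.067 for C1ra, -0.037 for C1s1, 1.44 for Hc, 0.15 for Cd59b and -0.23 for Cr1l. With the Y-linked covariate it was -0.069 for C1s1 and -0.029 for Cr1l. Cd59b was 0.013 with median-of-ratios scaling, 0.021 without a filter, 0.061 with the block by library number and 0.015 with DESeq2. With libraries left out the ranges were -0.28 to 0.16 for C4b, -0.11 to 0.48 for Cfi, -1.57 to 0.090 for Cd55, -0.088 to 0.14 for C1ra, -0.39 to 0.46 for C1s1, -0.59 to 0.065 for C2, -1.48 to 1.21 for Hc, -0.18 to 0.37 for Cd59b and -0.38 to 0.33 for Cr1l.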

Other observations

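Clusterin is taken up by receptors of the LDL receptor family and travels with other apolipoproteins. The 10 genes listed were such receptors and apolipoproteins, together with Plxna4, which is neither. All 10 were tested, 7 had a positive log2 fold change, and their median was 0.45 against -0.07 for all genes tested. In edgeR's test 0 passed after adjustment, and 4 had an unadjusted p under 0.05, each higher in AAV-GSTA4 without overlap of the groups: Lrp1, Lrp2, Lrp8 and Apoe, named here after their values were seen. Over all genes tested 5.27% had such a p with a higher level, and 6.44% were higher without overlap. Apoe, the other abundant apolipoprotein, averaged 4480 ± 1029 CPM (SD) over the 3 AAV-GFP libraries and 7609 ± 1504 CPM (SD) over the 4 AAV-GSTA4 libraries. For Lrp1 these means were 206 ± 7.79 and 488 ± 145 CPM (SD), and edgeR's fit gave 1.25 ± 0.29 (SE) on the log2 scale at an adjusted p of 0.363. Lrp2 (megalin) and Lrp8 had log2 fold changes of 0.88 ± 0.24 (SE) and 0.77 ± 0.21 (SE). Of the 14 RPE markers, 13 also had a positive log2 fold change, with a median of 0.64. In edgeR's test 5 of the 14 had an unadjusted p under 0.05 with a higher level in AAV-GSTA4. Groups did not overlap for 4 of the 14, again higher in AAV-GSTA4, so such values were not particular to the list of 10. The part of RPE content in the levels of these genes was not tested.

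Of 20 genes known to respond to interferon or NF-kB signals, which drive several complement genes, 19 were tested and 0 passed after adjustment in edgeR's test. At an unadjusted p under 0.05 there were 0 higher and 2 lower (5.27% and 6.63% of all genes tested), and the median log2 fold change was -0.33, against -0.07 for all genes. Groups did not overlap for 2 higher and 3 lower genes of the list, where the shares over all genes were 6.44% and 5.61%. Their summed level was 492 to 822 CPM in AAV-GFP and 626 to 858 CPM in AAV-GSTA4.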
